A study of Mus musculus with 12 samples.

Results

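RNA from the antrum, the distal part of the stomach, was compared between 3 tumor-bearing CEA424-SV40 TAg mice at day 90 and 3 non-transgenic control mice, with 1 Illumina Sentrix Mouse-6 bead array per mouse. These arrays were taken by their sample titles and make up 6 of the 12 arrays of a series that follows tumor growth in this model. The day 90 animals were hemizygous CEA424-SV40 -T antigen transgenic mice on a C57Bl/6 background, aged 90 days, and their samples contained antral tumor as well as normal tissue. The transgene places the SV40 T antigens under a promoter stretch of the human CEA gene. The control animals were wild type mice, also C57Bl/6, with normal antrum. They carried no transgene, and their labelled age of 2 to 6 months was not matched to the day. The comparison asked which genes, and the genes of which cells, were higher or lower in the antrum once tumors had developed, beyond the hormone and granule genes for which neuroendocrine tumors are best known.

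The antral mucosa is lined by mucous cells, with scattered endocrine cells and some parietal cells, and rests on a thick smooth muscle wall. In the mouse a forestomach with cornified squamous epithelium and, past the pylorus, duodenum and pancreas lie close by. Neuroendocrine cells share with neurons much of the machinery for making, storing and releasing transmitters, and many neuronal genes are held silent in other cells by the repressor REST, which binds a DNA element called RE1. Large T antigen binds and inactivates the retinoblastoma and p53 proteins, which restrain the cell cycle. In samples of whole tissue, fewer cells of a type cannot be told apart from less RNA per cell.

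Values are quantile normalized signals after background correction, and a signal above 100 was taken as above background. Where all 3 arrays of a group were at or below 100, the fold is given as "at least", against 100, while the log2 fold change is given as fitted. A probe was called changed at a limma adjusted p (Benjamini-Hochberg over 22064 probes) under 0.05, and errors of log2 fold changes are standard errors. In all, 4312 probes were called (19.5% of those tested), 2291 higher (10.4%) and 2021 lower (9.16%) in day 90 tumors, against 7157 with an unadjusted p under 0.05. Folds of at least 10 were found for 55 probes called higher and 23 called lower, of which 3 and 15 had no gene name. The 3 day 90 values lay above the 3 control values for 17.9% of the probes and below them for 19.9%. Counts in gene lists are set against the 5539 genes that could be named from their probe IDs, of which 11.8% were called higher and 10.4% lower, with a median log2 fold change of -0.04. The lists and their members were chosen with earlier results of these data known, so their shares are descriptions and not tests.

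The transgene and the identity of the samples were checked first. A probe for SV40 large T antigen had signals of 175, 175 and 143 in day 90 tumors, against 69.1, 72.3 and 67.5 in control antra (mice 1, 2 and 3 in this order throughout), at least 1.64-fold higher (adjusted p = 0.000282). A second probe, shared by both T antigens, had 111, 113 and 99.7 in day 90 tumors, against 79.2, 76.2 and 79.5 in control antra, at least 1.08-fold higher (adjusted p = 0.0226, and over 0.05 without any 1 mouse other than control mouse 3). A probe for small t was not above background in either group, and the groups overlapped. Of 3 antral mucous markers tested, Psca and Ctse were bright in both groups. Psca, a surface antigen of the pit epithelium, had 23035, 18668 and 22524 in day 90 tumors, against 36415, 43594 and 32077 in control antra. The protease gene Ctse had 5714, 4252 and 4835 in day 90 tumors, against 5118, 5684 and 3713 in control antra. Capn8 was dim, with 113, 112 and 129 in day 90 tumors, against 187, 195 and 143 in control antra. It was called lower (-0.56, adjusted p = 0.0303, and over 0.05 without any 1 mouse other than control mouse 3). Control mouse 3 stood apart from the other arrays on the second principal component (52.4, with 12.5% of the variance), and day 90 mouse 2 was the only one of the 6 mice with signal from the Y chromosome. Its Eif2s3y signal was 574, against 81.4 and 70.8 in the other tumor mice and 71.2, 71.9 and 65.5 in controls. Leaving out day 90 mouse 1, 2 or 3 gave 3761, 2417 and 2635 calls, and leaving out control mouse 1, 2 or 3 gave 3368, 3386 and 4720.

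Outside the list of known neuroendocrine genes, the 15 largest rises among named genes were led by Sbp, Hap1, Nt5dc2 and Pappa2, and they included a number of genes known from neurons. For 10 of these 15, the probe used is named only through the study's lists. Those lists were drawn up from genes that were high in these tumors, so the ranking favours them. Among the 10, Celf4 also has 2 dimmer probes named by their IDs. Among genes of neuronal signalling, Gad2, which makes the inhibitory transmitter GABA, had signals of 1232, 2029 and 1809.9 in day 90 tumors, against 78.8, 81.8 and 76 in control antra, at least 16.5-fold higher (log2 fold change 4.39 ± 0.18, adjusted p = 2.72e-06). Nptx2, a pentraxin secreted at excitatory synapses, had 1124, 1175 and 1139 in day 90 tumors, against 65.1, 86.9 and 96.8 in control antra, at least 11.5-fold higher (3.81 ± 0.16). The control arrays were not above background for either gene, and the 3 tumors differed little for Nptx2. Hap1, a partner of huntingtin in vesicle transport, had 4719, 7105 and 5346 in day 90 tumors, against 242, 149 and 181 in control antra, 30.1-fold higher (4.91 ± 0.21, adjusted p = 2.94e-06). Kndc1, a brain regulator of Ras signalling in dendrites, had 715, 1435 and 1293 in day 90 tumors, against 86.6, 92.4 and 66.2 in control antra, at least 11-fold higher (3.76 ± 0.26). Miat, a long noncoding RNA of the nervous system, had 818, 1962 and 1098 in day 90 tumors, against 78.2, 79.8 and 70.2 in control antra, at least 12.1-fold higher (3.99 ± 0.27). For Kndc1 and Miat day 90 mouse 1 was the lowest of the tumors.

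Cell surface genes formed a second set among these rises. Thy1, a lipid-anchored glycoprotein of neurons and T cells, had signals of 5025, 4871 and 4658 in day 90 tumors, against 276, 193 and 212 in control antra, 21.6-fold higher (4.43 ± 0.15, adjusted p = 9.84e-07). The T cell marker Cd3e was at 115, 89.5 and 95.5 in day 90 tumors, against 72.4, 89.2 and 128 in control antra, and like the other 10 T and NK cell genes named by probe ID it was too low to be tested. Amigo2, a leucine-rich repeat adhesion molecule, had 2441, 5163 and 3991 in day 90 tumors, against 199, 169 and 217 in control antra, 19-fold higher (4.25 ± 0.25, and 4.17 on a second probe). Dner, a neuronal transmembrane protein with EGF repeats that can activate Notch, had 1643, 2374 and 1551 in day 90 tumors, against 141, 171 and 108 in control antra, 13.2-fold higher (3.73 ± 0.21). In all 3 genes the lowest tumor was far above the highest control.

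The remaining rises were of mixed function. Pappa2, a protease that cleaves IGF binding proteins, had 2423, 4026 and 2493 in day 90 tumors, against 97.5, 117 and 97.6 in control antra, 28-fold higher (4.81 ± 0.20). Serpina3n, an acute phase inhibitor of serine proteases, had 3673, 4984 and 7082 in day 90 tumors, against 429, 319.6 and 274 in control antra, 15.1-fold higher (3.92 ± 0.25). In 13 of the 15 genes day 90 mouse 2 was the highest tumor, and Serpina3n, highest in day 90 mouse 3, was an exception. Sbp, whose protein binds spermine and is known from mouse prostate secretion, had 1447, 3096 and 2077 in day 90 tumors, against 68.5, 70.8 and 59.5 in control antra, at least 21-fold higher (4.99 ± 0.24). Eef1a2, the translation elongation factor of neurons and muscle, had 3390.2, 3830.2 and 3413 in day 90 tumors, against 182, 198 and 299 in control antra, 16-fold higher (adjusted p = 4.84e-06, and a log2 fold change of 1.32 on a second, dim probe). Celf4, a splicing regulator of neurons, had 3033, 4426 and 3147 in day 90 tumors, against 230.4, 237 and 321 in control antra (3.75 ± 0.19), while its 2 dimmer probes gave 1.38 and 1.27. Bex2, a brain-expressed gene of the X chromosome, had 7437, 8163 and 6347 in day 90 tumors, against 559, 545 and 338 in control antra, 15.5-fold higher (3.96 ± 0.20). Nt5dc2, a predicted nucleotidase, had 5670.3, 7852 and 4912 in day 90 tumors, against 141, 197 and 289.9 in control antra, 30.1-fold higher (4.91 ± 0.26, and 3.75 on its other probe). Adjusted p of the 15 genes lay between 9.84e-07 and 2.96e-05, no tumor overlapped a control, and all 15 kept their call under each of the 16 alternatives run.

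**Figure D1:**
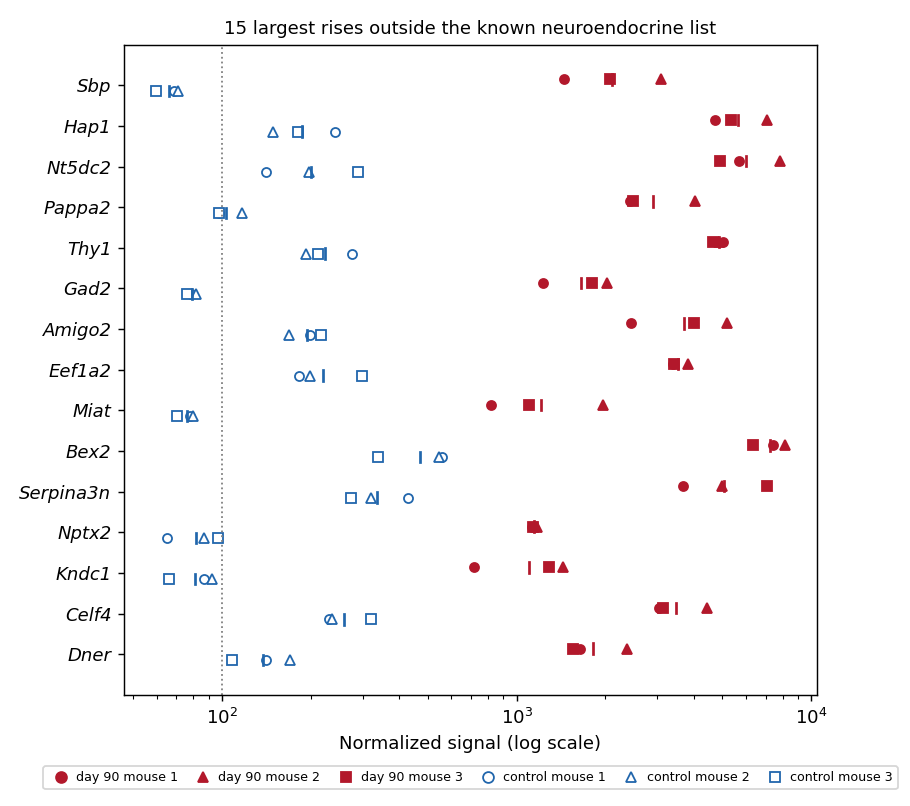
Normalized signal (log axis) of the 15 largest rises outside the known neuroendocrine list, with 1 point per mouse, filled for day 90 tumors and open for control antra, and short vertical lines at the geometric mean of each group. The dotted line marks the signal minimum of 100, and for every gene the 3 tumors lie above the 3 controls, with Gad2 for example at 1232, 2029 and 1809.9 against 78.8, 81.8 and 76.

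Most tested genes of neuronal projection and adhesion were called higher. Of 34 members named by their probe IDs 28 passed the signal minimum, 6 of them only through the day 90 arrays, and 19 of the 28 were called higher and 0 lower (67.9% higher, against 11.8% of all such genes). The median log2 fold change was 1.01, or 0.73 with genes below background set at their bound. A further 7, known only through the study's lists, were all called higher and were left out of the count. After Amigo2 the largest change was that of Gap43, a protein of growing axon tips, with 1182, 1119 and 815 in day 90 tumors, against 131, 144 and 92.1 in control antra (3.09 ± 0.20, adjusted p = 2.27e-05). Celsr3, a cadherin that guides axons, had 578, 781 and 663 in day 90 tumors, against 76.7, 85.7 and 81.1 in control antra, at least 6.69-fold higher (3.04 ± 0.14). Stmn3, which destabilizes microtubules in neurons, had 789, 762 and 574 in day 90 tumors, against 121, 116 and 95.5 in control antra (2.67 ± 0.16). The 3 genes separated the groups without overlap and varied less than 1.5-fold among tumors. The neuronal tubulin Tubb3, by contrast, had 152, 148 and 169 in day 90 tumors, against 192, 153 and 174 in control antra (log2 fold change -0.14 ± 0.13, adjusted p = 0.51). Nefl, the light neurofilament chain, had 92, 78.8 and 96.3 in day 90 tumors, against 108, 101 and 76.3 in control antra (-0.08 ± 0.16, adjusted p = 0.767). These 2 widely used neuronal markers did not pass the test. The mean level of the list (geometric mean over members) was 266, 284 and 262 in day 90 tumors, against 117, 115 and 106 in control antra.

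Transmitter receptors and ion channels gave a narrower picture. Of 15 members tested 5 were called higher and 0 lower (33.3% higher, against 11.8% of all such genes). The median was 0.31, or 0.27 with genes below background set at their bound. Of the 15, 5 reached the signal minimum only through the day 90 arrays. A further 10, known only through the study's lists, were all higher. Gria2, the AMPA receptor subunit that keeps calcium out, had 742, 1263 and 1055 in day 90 tumors, against 102, 124 and 105 in control antra (3.18 ± 0.20, adjusted p = 1.61e-05, and 2.45 on a second probe). Gnao1, the most abundant G protein alpha subunit of brain, had 448, 522 and 426 in day 90 tumors, against 176, 133 and 139.8 in control antra (1.64 ± 0.15). Cacna2d1, an auxiliary subunit of calcium channels, had 283, 319 and 266 in day 90 tumors, against 133, 98.7 and 120.1 in control antra (1.31 ± 0.15). The nicotinic receptor subunit gene Chrnb2 rose at least 1.73-fold (1.24 ± 0.12), with 160.1, 178 and 183 in day 90 tumors, against 74.1, 71.3 and 74.5 in control antra. The 10 members without a call had signals under 200 on all 6 arrays. Of 11 members of the tubulin and growth cone motor list 8 were called higher and 0 lower (median 0.60). The largest change was that of Spock1, a brain proteoglycan that is neither a tubulin nor a motor (413, 551 and 513 in day 90 tumors, against 86.2, 108 and 86.4 in control antra, 2.39 ± 0.15). Next was Tuba1a, the alpha tubulin of developing neurons (701, 928 and 779.7 in day 90 tumors, against 202, 214 and 156 in control antra, 2.08 ± 0.16). That count was 4 without day 90 mouse 2 and 5 without day 90 mouse 3.

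Promoter letters are shown for the neuronal genes above whose 250 bases before the transcription start contain the core of the RE1 element (AGCACC, any 2 bases, then GGACA), searched on both strands of 32851 RefSeq promoters of the build GRCm38.p6 (300 bases each, 50 of them after the start). Only 22 of all promoters (0.067%) held these letters. Among tested members of the 2 neuronal lists with a promoter in the table they were found in 1 of 24 projection and adhesion genes, Robo2, and in 2 of 18 receptor and channel genes, Gad2 and Gria2. Unlike the list counts above, these include members known only through the study's lists, which were drawn up from genes high in these tumors. Outside the 2 lists the letters were also found in Dner. Gad2 and Dner are both known only through the study's lists. The stretches are Gad2 at chr2:22622124-22622216 (+ strand), Dner at chr1:84696316-84696408 (- strand), Gria2 at chr3:80802952-80803044 (- strand) and Robo2 at chr16:75447317-75447409 (- strand), each written in the direction of the gene with the match in capitals, which in Gria2 reads on the other strand.
Gad2: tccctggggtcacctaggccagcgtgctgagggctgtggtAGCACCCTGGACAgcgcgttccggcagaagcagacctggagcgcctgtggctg
Dner: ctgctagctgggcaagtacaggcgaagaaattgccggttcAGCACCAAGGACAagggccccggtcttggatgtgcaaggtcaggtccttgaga
Gria2: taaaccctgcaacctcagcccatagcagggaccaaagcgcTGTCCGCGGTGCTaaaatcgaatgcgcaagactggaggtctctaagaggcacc
Robo2: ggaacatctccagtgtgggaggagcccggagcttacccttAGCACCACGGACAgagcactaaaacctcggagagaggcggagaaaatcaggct
Of the 4 genes Gad2, Dner and Gria2 were called higher, as given above, whereas Robo2, a receptor of the axon guidance protein Slit, had 114, 96.3 and 111 in day 90 tumors, against 124, 102 and 91.5 in control antra (log2 fold change 0.03 ± 0.15, adjusted p = 0.911) and did not pass the test. A match is a description of the letters, and binding of a factor was not measured.

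Other gene lists moved in part. Of 10 imprinted genes, which are expressed from 1 parental allele, 5 were called higher and 1 lower (median 0.62), and 5 more, known only through the study's lists, were higher. The lower one was Kcnq1, a potassium channel that parietal cells also use, with 673, 672 and 893 in day 90 tumors, against 2371, 2707 and 1488 in control antra (-1.52 ± 0.23, adjusted p = 0.00206). Beside Dlk1, which belongs to the known neuroendocrine list, Peg3, a zinc finger protein of the paternal allele, had 609, 1517 and 958 in day 90 tumors, against 144, 132 and 135 in control antra (2.81 ± 0.28, adjusted p = 0.000225, and 1.34 on its other probe). Snrpn, a splicing protein of neurons, had 554, 736 and 702 in day 90 tumors, against 180.5, 227 and 220.1 in control antra (1.66 ± 0.15). Gnas, the stimulatory G protein alpha subunit, had 1283, 1393 and 1449 in day 90 tumors, against 478, 513 and 478 in control antra (1.49 ± 0.12). These 3 genes were above control in all tumors, and day 90 mouse 2 was the highest for Peg3 and Snrpn. Of 10 stem and progenitor genes 2 were called higher and 2 lower. Sox2, a transcription factor of foregut and neural progenitors, had 249, 255 and 258 in day 90 tumors, against 96, 77.3 and 78.4 in control antra (at least 2.54-fold, log2 fold change 1.60 ± 0.13, adjusted p = 6.76e-05), nearly equal in the 3 tumors, and 0.75 on a second probe. Cckbr, the receptor of gastrin, had 815, 795 and 621 in day 90 tumors, against 238, 238 and 116 in control antra (1.98 ± 0.27, adjusted p = 0.00135), and it also stands on the parietal and chief cell list, whose other called members fell. The lower ones were Krt15, a keratin of basal cells that is also on the squamous list, with 169.9, 66 and 76.7 in day 90 tumors, against 378, 562 and 481 in control antra (-2.30 ± 0.32, adjusted p = 0.00159), and Runx1, a transcription factor of blood and epithelia, with 154, 126 and 127 in day 90 tumors, against 211, 160.0 and 206 in control antra (-0.50 ± 0.15, adjusted p = 0.0486). The call of Runx1 was lost without day 90 mouse 2 (0.154), day 90 mouse 3 (0.162), control mouse 1 (0.138) or control mouse 3 (0.0931).

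A minority of tested genes of acute inflammation were higher. Of 11 members of the neutrophil and acute inflammation list 4 were called higher, 1 lower and 6 did not pass (36.4% higher, median 0.41), and 3 of the 11 reached the signal minimum only through the day 90 arrays. All 7 members known only through the study's lists were higher. The lower one was the acute phase gene Orm1, with 109.5, 79.1 and 99 in day 90 tumors, against 166, 113 and 168 in control antra (-0.63 ± 0.19, adjusted p = 0.0495), a call lost without day 90 mouse 2 (0.177), day 90 mouse 3 (0.109), control mouse 1 (0.141) or control mouse 3 (0.0967). The higher ones were Serpina3n, described above, the complement component gene C4b with 472, 372 and 470.1 in day 90 tumors, against 113, 92.8 and 126 in control antra (1.99 ± 0.16), and the neutrophil chemokine genes Cxcl1 and Cxcl2. The other probes of C4b gave 0.79 (adjusted p = 0.0206) and -0.06 (adjusted p = 0.798). Cxcl1 had 302, 285 and 256 in day 90 tumors, against 122, 111 and 116 in control antra (1.27 ± 0.12, adjusted p = 0.000186). Cxcl2 had 357, 185 and 147 in day 90 tumors, against 70.4, 80 and 63.2 in control antra, with no control above background (1.59 ± 0.29, adjusted p = 0.0053). Day 90 mouse 1 was the highest for Cxcl2 and for the granulocyte calprotectin genes. S100a9 had 1431, 259.7 and 356 in day 90 tumors, against 236, 283 and 236 in control antra (log2 fold change 1.02 ± 0.52, adjusted p = 0.216). S100a8, known only through the study's lists, had 1455, 282 and 447 in day 90 tumors, against 72.7, 85 and 209 in control antra (2.38 ± 0.58, adjusted p = 0.0203). Ltf, a granule protein of neutrophils and glands, had 1176, 322 and 339.9 in day 90 tumors, against 604, 634 and 1009 in control antra (adjusted p = 0.468), so the list's defining markers overlapped between the groups except S100a8. The summed signal of the list was 8010.5, 6852 and 9195 in tumors, against 2129, 2006 and 2368 in controls, and Serpina3n gave the most to it in tumors.

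Matrix genes moved in both directions. Of 26 fibroblast and matrix genes 5 were called higher and 5 lower (19.2% each, against 11.8% and 10.4% of all such genes), with a median of 0.08. Thbs2, a matricellular thrombospondin, had 1007, 1374 and 944 in day 90 tumors, against 175, 165 and 142 in control antra (2.77 ± 0.17, adjusted p = 1.5e-05). The collagen gene Col8a1 had 408, 442 and 284 in day 90 tumors, against 166, 163 and 138 in control antra (1.26 ± 0.18), and the fibrillar Col3a1 had 1426, 918 and 890.1 in day 90 tumors, against 465, 529 and 365 in control antra (1.23 ± 0.21). Of the lower genes, the largest changes were these. Col15a1, a collagen of basement membranes, had 224, 108 and 130.2 in day 90 tumors, against 292, 332 and 315 in control antra (-1.09 ± 0.24, adjusted p = 0.0132). Fbln1, a fibulin of elastic fibres, had 595, 342 and 288 in day 90 tumors, against 656, 912 and 938 in control antra (-1.09 ± 0.26). Its second probe gave -0.58 (adjusted p = 0.209), with overlapping groups. Both calls were lost without day 90 mouse 2 (adjusted p = 0.0609 for Col15a1 and 0.104 for Fbln1) or day 90 mouse 3 (0.0516 and 0.0688), and that of Fbln1 also without control mouse 2 (0.054). Tnxb, a tenascin of loose connective tissue, was lower with 144, 131 and 158 in day 90 tumors, against 312, 281 and 275 in control antra (adjusted p = 0.000812). Of 13 members of the list of metalloproteinases and protease inhibitors 5 were higher and 0 lower, and 4 more, known only through the study's lists, were higher. The 5 were led by Serpine2, an inhibitor of the serine proteases thrombin and urokinase, with 1732, 1152 and 923 in day 90 tumors, against 303, 319 and 396 in control antra (1.86 ± 0.22, adjusted p = 0.000657). Among 11 endothelial genes 2 were higher and 1 lower (18.2% and 9.09%, near the 11.8% and 10.4% of all such genes). Prox1, a transcription factor of lymphatic and of endocrine cells, also belongs to the known neuroendocrine list. It had 223, 284 and 236 in day 90 tumors, against 89.7, 99.2 and 82.2 in control antra, at least 2.46-fold higher (1.45 ± 0.14). Vcam1, an adhesion molecule, had 522, 526 and 469 in day 90 tumors, against 266, 266 and 226 in control antra (adjusted p = 0.000833). The lower one was Robo4, an endothelial roundabout receptor (-0.56, adjusted p = 0.0311), a call that was lost without any 1 of day 90 mice 2 and 3 (adjusted p = 0.115 and 0.116) and control mice 1 and 2 (0.088 and 0.0843). The pan-endothelial marker Pecam1 had 325, 253 and 308 in day 90 tumors, against 402, 376 and 303 in control antra (-0.29 ± 0.15, adjusted p = 0.243).

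Some cell cycle genes were higher. Of 27 replication and mitosis genes 8 were called higher, 0 lower and 19 did not pass (29.6% higher), with a median of 0.23. Pcna, the sliding clamp of DNA polymerase, had 552, 445 and 456 in day 90 tumors, against 226, 229.7 and 171 in control antra (1.22 ± 0.16, adjusted p = 0.000973). Ccnb1, the cyclin of mitotic entry, had 769, 508 and 323 in day 90 tumors, against 218, 213 and 274 in control antra (1.10 ± 0.28, adjusted p = 0.023). Rrm2, a subunit of ribonucleotide reductase, had 354, 221 and 164 in day 90 tumors, against 127, 108 and 107 in control antra (1.04 ± 0.25, and 0.38 on a second probe, adjusted p = 0.101). Day 90 mouse 1 was the highest tumor for each of these and for Mki67, the proliferation marker, which had 945, 617 and 402 in day 90 tumors, against 375, 285 and 439 in control antra (0.77 ± 0.29, adjusted p = 0.097) and did not pass. The count was 3 without day 90 mouse 2 and 5 without either control mouse 1 or 2. Ccnb1 lost its call without day 90 mouse 2 (adjusted p = 0.101), control mouse 1 (0.0677) or control mouse 2 (0.0604), and Rrm2 without day 90 mouse 2 (0.0748). Of 11 genes of the Rb and p53 pathways, 2 were higher, the E2F partner Tfdp1 (419, 308 and 341 in day 90 tumors, against 241, 192 and 211 in control antra, 0.72 ± 0.15) and E2f6 (0.46 ± 0.12, adjusted p = 0.031). The other probes of E2f6 gave 0.20 and 0.14 and did not pass, and its call was lost without any 1 of the 6 mice other than control mouse 2, with adjusted p between 0.063 and 0.13. The p53 target Cdkn1a had 1279, 1116 and 925 in day 90 tumors, against 1296, 1488 and 1155 in control antra (-0.25 ± 0.16, adjusted p = 0.316).

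**Figure D2:**
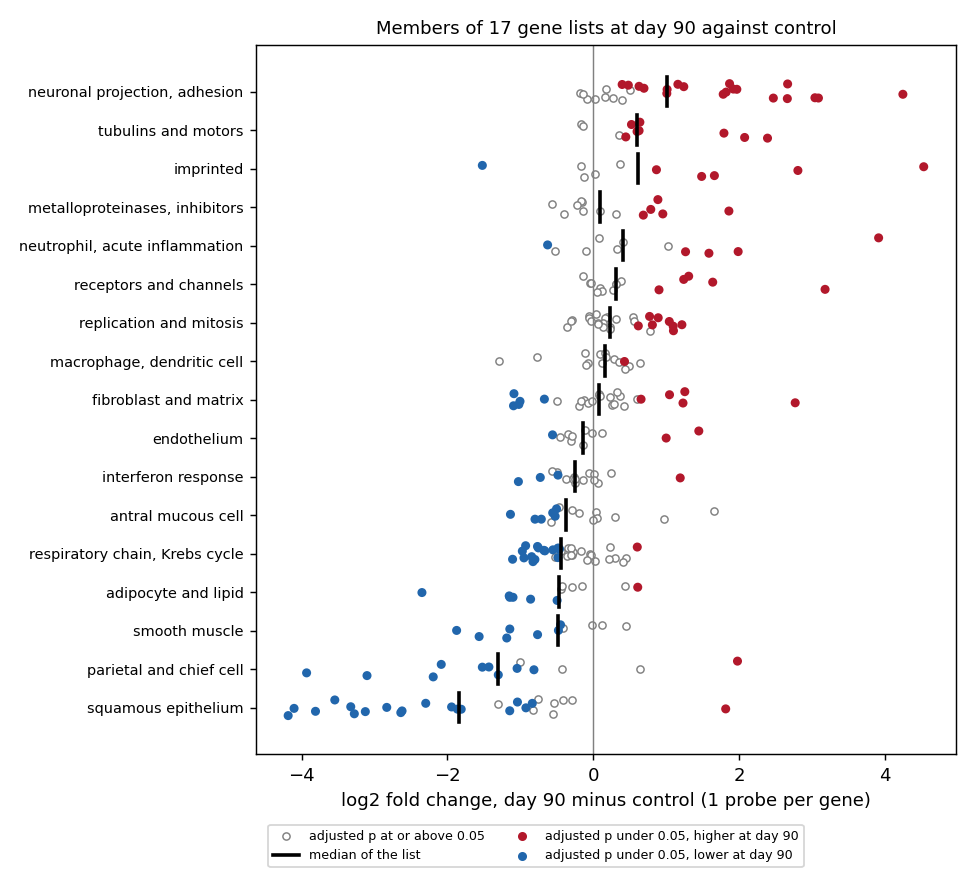
Log2 fold change, day 90 minus control (x axis), of each tested member of 17 gene lists, with filled points for an adjusted p under 0.05, open points for the others and a bar at the median of each list. Medians run between 1.01 for neuronal projection and adhesion genes at the top and -1.84 for squamous epithelium at the bottom.

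Outside the squamous, parietal and chief cell lists, the 15 largest falls among named genes held secreted proteins, lipid genes and genes of oxidative metabolism. All were named by their probe IDs. Pla2g1b, the phospholipase A2 best known from pancreatic juice, had 1856, 751 and 2582 in day 90 tumors, against 24290.1, 34656 and 23866 in control antra, 17.7-fold lower (log2 fold change -4.15 ± 0.39, adjusted p = 0.000177). It stands on the acinar list, where the trypsinogen gene Prss1 had 65, 3051 and 7026 in day 90 tumors, against 3753, 132 and 65.6 in control antra, high in control mouse 1 and in day 90 mice 2 and 3, while Pla2g1b was high in all 3 controls. Apoa1, the main protein of HDL, had 625, 1042 and 1188 in day 90 tumors, against 8496, 14942 and 5654 in control antra, 9.75-fold lower (-3.29 ± 0.35, adjusted p = 0.00034). Its intestinal neighbour in function, Apoa4, had 102, 563 and 738 in day 90 tumors, against 651, 615 and 1499 in control antra (-1.27 ± 0.67, adjusted p = 0.229). Retnla, a resistin-like secreted protein of allergic inflammation, had 89, 67.3 and 79.3 in day 90 tumors, against 433, 631 and 266 in control antra and was at least 4.17-fold lower (-2.42 ± 0.28), not above background in any tumor. Pcp4l1, a small protein known from cerebellum, had 146, 129 and 122 in day 90 tumors, against 527, 693 and 431 in control antra (-2.03 ± 0.18, adjusted p = 0.00012).

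Genes of fuel use made up a second set of falls, with control mouse 3 the lowest control for each. Cox7a1, the cytochrome oxidase subunit of heart and muscle, had 226, 150.2 and 159 in day 90 tumors, against 1971, 2432 and 865 in control antra, 9.15-fold lower (-3.19 ± 0.35, adjusted p = 0.000384). Fabp3, the fatty acid binding protein of heart, had 611, 438 and 485 in day 90 tumors, against 5654, 8540.1 and 1528 in control antra, 8.28-fold lower (-3.05 ± 0.52, and -3.78 without control mouse 3). Ldhb, the lactate dehydrogenase subunit of heart, had 292, 219 and 308 in day 90 tumors, against 2015, 3010.4 and 642 in control antra (-2.54 ± 0.47, and -3.19 without that mouse). The next genes are lipid enzymes. Lpl, which frees fatty acids from lipoproteins, had 436, 194 and 231 in day 90 tumors, against 1339, 2479 and 782 in control antra (-2.35 ± 0.42). Fa2h, which hydroxylates fatty acids for sphingolipids, had 263, 175 and 216 in day 90 tumors, against 1695, 2347 and 531 in control antra (-2.58 ± 0.46, and -3.21 without control mouse 3). Mogat1, which builds diacylglycerol, had 378, 126 and 198 in day 90 tumors, against 1437, 2054 and 420.1 in control antra (-2.35 ± 0.57, adjusted p = 0.0198, and -3.02 on the log2 scale without control mouse 3). For all of these the lowest control was still above the highest tumor, in Mogat1 by little (378 in day 90 mouse 1 against 420.1 in control mouse 3). The Ras exchange factor gene Rasgrp3 had the same shape, with 158, 94.2 and 106 in day 90 tumors, against 578, 828 and 248 in control antra (-2.08 ± 0.39). Atp4a of the parietal cell pump, with 792, 431 and 637 in day 90 tumors, against 11468, 17193 and 3931 in control antra, was lowest in the same control mouse, and the part of parietal cells in these falls was not tested. Hba-a1, an alpha globin of red cells, had 956, 470.1 and 275 in day 90 tumors, against 2011, 3151 and 1665 in control antra (-2.14 ± 0.41, adjusted p = 0.00685).

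Without day 90 mouse 2, the adjusted p rose to 0.0506 for Ldhb, 0.113 for Mogat1, 0.0532 for Rasgrp3, 0.0514 for Hba-a1 and 0.0689 for Mt4, so these calls rest on that array, while their log2 fold changes stayed between -1.92 and -2.39. Mogat1 also lost its call without day 90 mouse 3 (adjusted p = 0.0575), control mouse 1 (0.0658) or control mouse 2 (0.0501). The last 3 of the 15 are genes of cornifying epithelium outside the squamous list. Lce1a1 and Lce1a2 of the cornified envelope are near copies, so their probes may share signal. Lce1a1 had 344, 82.2 and 100.4 in day 90 tumors, against 929.8, 1239 and 1192 in control antra (-2.97 ± 0.45) and Lce1a2 had 142, 67.3 and 83.5 in day 90 tumors, against 328, 551 and 463 in control antra (-2.24 ± 0.28). Mt4, the metallothionein of stratified epithelia, had 494, 87.8 and 104 in day 90 tumors, against 859, 1325 and 931 in control antra (-2.62 ± 0.56). In each, day 90 mouse 1 was the highest of the tumors, and without it the log2 fold change was -3.61 for Lce1a1 and -3.42 for Mt4.

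**Figure D3:**
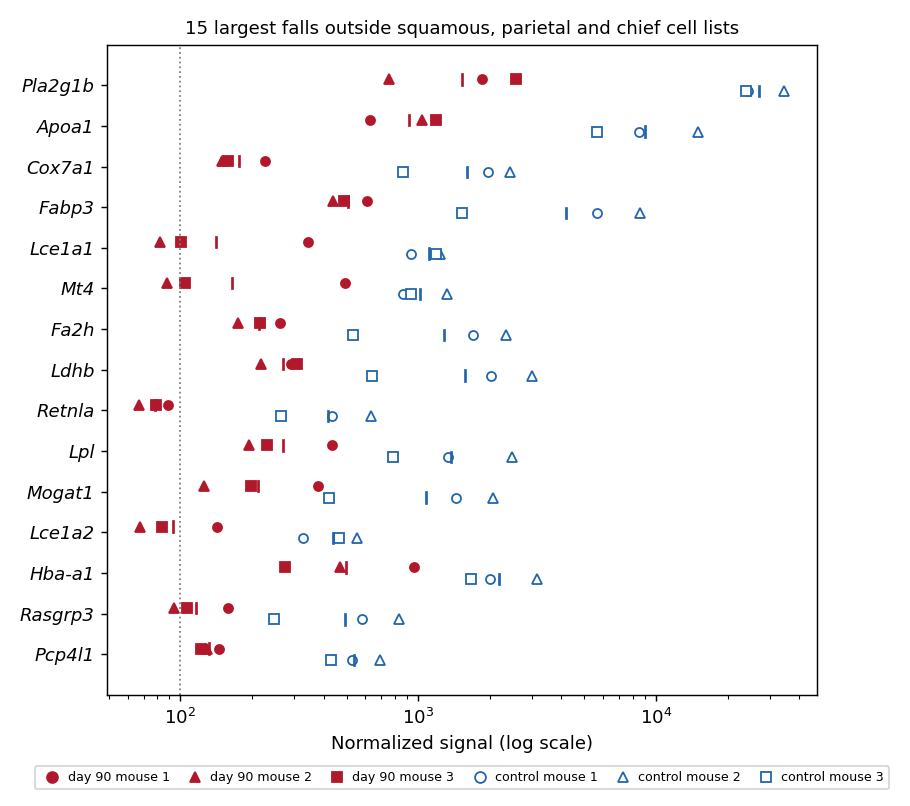
Normalized signal (log axis) of the 15 largest falls outside the squamous, parietal and chief cell lists, with 1 point per mouse, filled for day 90 tumors and open for control antra, and short vertical lines at the geometric mean of each group. Control mouse 3 (open squares) is the lowest control in 12 of the 15 genes and day 90 mouse 1 (filled circles) the highest tumor in 12.

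Squamous genes had the lowest median of the lists and were uneven among tumors. Of 26 members tested 18 were called lower and 1 higher (69.2% lower, against 10.4% of all such genes), with a median of -1.84. The keratin gene Krt13 of non-cornified layers had 2199, 66.2 and 72.2 in day 90 tumors, against 2813, 5312 and 4234 in control antra (-4.19 ± 1.14, adjusted p = 0.0316). Krtdap, a keratinocyte differentiation protein, had 2447, 60.4 and 84.5 in day 90 tumors, against 3462, 5083 and 3613 in control antra (-4.11 ± 1.16, adjusted p = 0.0367). Rptn, a repetin of the cornified envelope, had 1085, 92 and 124 in day 90 tumors, against 2639, 4234 and 3075 in control antra (-3.81 ± 0.77, adjusted p = 0.00898). Day 90 mice 2 and 3 were at or near background for these genes and day 90 mouse 1 lay far above them but below each control. The geometric mean of the list was 392, 111 and 125 in tumors, against 549.7, 767 and 609.9 in controls, and its summed signal, to which Sprr2a1 gave the most, was 46595, 18457 and 14709 in tumors, against 37979, 68455 and 49040.1 in controls, so that on the summed signal day 90 mouse 1 overlapped the controls. How much forestomach epithelium each sample held was not measured apart from these genes. The count of members called lower was 22 without day 90 mouse 1, 9 without day 90 mouse 2 and 15 without day 90 mouse 3. It was 10 with a trended and robust spread and 5 by the methods' t-test. Krt13 and Krtdap lost their calls without any 1 of day 90 mice 2 and 3 and control mice 1 and 2, with adjusted p between 0.0624 and 0.165, and Rptn without day 90 mouse 2 (0.057). Without day 90 mouse 1 the log2 fold changes were -5.85 for Krt13, -5.80 for Krtdap and -4.93 for Rptn, and without day 90 mouse 2 they were -3.32, -3.13 and -3.15. Without day 90 mouse 3 they were -3.38 for Krt13 and -3.38 for Krtdap. The exception was Gsdma, a gasdermin of skin and stomach, which was higher with 329, 519 and 388 in day 90 tumors, against 115, 135 and 97 in control antra (1.82 ± 0.19, adjusted p = 0.00033).

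Promoters of Krt13 and Krtdap are printed because both hold the AP-1 site TGACTCA, bound by Jun and Fos proteins of epithelia, which was searched on both strands and found in 1709 of 32851 promoters (5.2%) and in 4 of the 16 tested squamous members with a promoter in the table. The stretches are Krt13 at chr11:100120714-100120800 (- strand) and chr11:100120578-100120651 (- strand), and Krtdap at chr7:30787784-30787870 (+ strand), where the site reads on the other strand. Sites are in capitals.
Krt13: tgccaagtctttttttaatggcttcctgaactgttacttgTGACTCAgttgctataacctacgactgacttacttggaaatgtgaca
Krt13: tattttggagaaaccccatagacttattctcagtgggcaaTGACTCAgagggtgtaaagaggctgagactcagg
Krtdap: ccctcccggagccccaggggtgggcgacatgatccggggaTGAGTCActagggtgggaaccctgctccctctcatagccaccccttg

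Most tested genes of the parietal and chief cell list were lower, although none of its 3 chief cell markers could be named. Of 13 parietal and chief cell genes 9 were called lower and 1 higher (69.2% lower), with a median of -1.30. Beside Atp4a (log2 fold change -3.93 ± 0.47, adjusted p = 0.000667), Clic6, a chloride channel-like protein of parietal cells, had 835, 531 and 629 in day 90 tumors, against 6543, 8984 and 3014 in control antra (-3.10 ± 0.36). Slc4a2, the basolateral anion exchanger, had 705, 661 and 719 in day 90 tumors, against 3774, 4851 and 1756 in control antra (-2.19 ± 0.32). Bhlha15, the chief cell transcription factor Mist1, had 118, 126 and 172 in day 90 tumors, against 543, 411 and 171 in control antra (-1.30 ± 0.37, adjusted p = 0.0383). Its groups overlapped, since control mouse 3 was no higher than day 90 mouse 3, and its other, dim probe gave -0.12 (adjusted p = 0.627). Without control mouse 3 the folds were larger, at -4.54 for Atp4a and -2.62 for Slc4a2, and the count of members called lower was 11. By the methods' t-test it was 2. The summed signal of the list was 13554, 12591 and 11859 in tumors, against 39853, 51307 and 22633 in controls.

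Smooth muscle genes fell evenly. Of 11 members 7 were called lower and 0 higher (63.6% lower), with a median of -0.48. Mylk, the kinase that starts contraction, had 1578, 1046 and 934 in day 90 tumors, against 4588, 3931 and 4213 in control antra (-1.87 ± 0.19, adjusted p = 0.000282). Acta2, smooth muscle actin, had 649, 683 and 679.5 in day 90 tumors, against 1805, 1473 and 1333 in control antra (-1.19 ± 0.14, adjusted p = 0.000589). The intermediate filament gene Synm had 291, 244 and 178 in day 90 tumors, against 854, 618 and 619 in control antra (-1.56 ± 0.20). Cav1, of caveolae in muscle, fat and endothelium, had 859.9, 595 and 616 in day 90 tumors, against 1610.1, 1467 and 1441 in control antra (-1.14 ± 0.16). In each of the 4 the groups lay apart, and leaving out any 1 mouse left the call in place. Cald1 and Synpo2 did not pass (log2 fold changes 0.12 and -0.02). The count was 4 without either day 90 mouse 2 or day 90 mouse 3. Gucy1a1, a guanylate cyclase subunit of muscle and interstitial cells of Cajal, the pacemakers of the gut wall, had 484, 322 and 382 in day 90 tumors, against 765, 701 and 638 in control antra (-0.84 ± 0.17, adjusted p = 0.00777, and -0.16 on a dim second probe). Of 5 enteric glia genes tested 2 were called higher and 0 lower (40% higher, against 11.8% of all such genes). Apoe had 797, 533 and 718 in day 90 tumors, against 295, 428 and 381 in control antra (0.89 ± 0.19). Gpm6b had 112.2, 129.5 and 125.8 in day 90 tumors, against 68.26, 75.15 and 62.62 in control antra, at least 1.22-fold higher (0.84). It reached the signal minimum only through the day 90 arrays. The defining glial markers Gfap and S100b were too low to be tested.

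Some mucous cell genes were lower. Of 16 members 6 were called lower and 0 higher (37.5% lower, against 10.4% of all such genes), with a median of -0.38. Klf4 was not called on its brightest probe (-0.198, adjusted p = 0.417). Its other probes gave -1.015 (adjusted p = 0.00652) and -1.06 (adjusted p = 0.00206). Krt19, a keratin of ducts and glands, had 1676, 1194 and 1139.6 in day 90 tumors, against 3241, 2248 and 3316 in control antra (-1.14 ± 0.20, adjusted p = 0.00477). Psca, given above, was 1.74-fold lower (adjusted p = 0.00682). Sox21, a transcription factor of foregut and hair, had 1043, 766 and 694 in day 90 tumors, against 1777, 1226 and 1118 in control antra (-0.71 ± 0.21, adjusted p = 0.0448), a call lost without day 90 mouse 2 (adjusted p = 0.159), day 90 mouse 3 (0.154), control mouse 1 (0.12) or control mouse 2 (0.0636). The simple epithelial keratin Krt18 had 2308, 2324 and 2276 in day 90 tumors, against 2203, 1971 and 2496 in control antra (0.06 ± 0.13, adjusted p = 0.799). That count was 3 without day 90 mouse 2, 2 without day 90 mouse 3 and 3 without control mouse 1. The gastrokine, trefoil factor and mucin genes of the antrum could not be named among the probes and were not analysed here.

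Many nuclear genes of energy metabolism were lower. Of 35 respiratory chain and Krebs cycle genes 16 were called lower, 1 higher and 18 did not pass (45.7% lower), with a median of -0.44. Ogdh, a dehydrogenase of the Krebs cycle, had 705, 593 and 648 in day 90 tumors, against 1423, 1467 and 1292 in control antra (-1.11 ± 0.12, adjusted p = 0.000454). Ndufa9, of complex I, had 1392, 1311 and 1239 in day 90 tumors, against 2558, 2699 and 2358 in control antra (-0.95 ± 0.12). The 1 gene called higher was Mdh2, mitochondrial malate dehydrogenase, with 2414, 2846 and 2344 in day 90 tumors, against 1651, 1698 and 1630.0 in control antra (0.61 ± 0.12, adjusted p = 0.0092). Parietal cells are rich in mitochondria, and the parietal markers were lower in the same mice, as given above. Their part in this was not tested. Without day 90 mouse 2 or 3 the count was 7 in both cases, and without control mouse 1 or 2 it was 9 and 10. Among 12 adipocyte and lipid genes 6 were lower and 1 higher (median -0.47). Plin4, a lipid droplet coat protein, had 206, 202 and 218 in day 90 tumors, against 683, 378 and 385 in control antra (-1.15 ± 0.22). The higher one was Acly, which supplies acetyl-CoA for fat synthesis, with 2944, 3837 and 3763 in day 90 tumors, against 2468, 2098 and 2300.4 in control antra (0.61 ± 0.14, adjusted p = 0.0172). Its call was lost without day 90 mouse 2 (adjusted p = 0.074), day 90 mouse 3 (0.079) or control mouse 2 (0.0573).

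**Figure D4:**
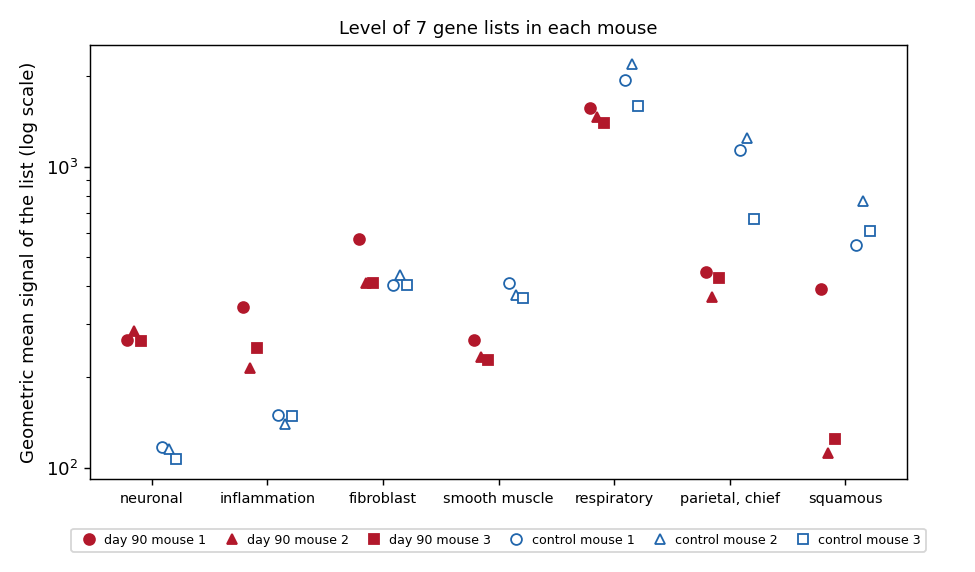
Geometric mean signal over the tested members of 7 gene lists (log axis) in each mouse, filled for day 90 tumors and open for control antra. The neuronal list separates the groups evenly, squamous genes are high in day 90 mouse 1 (392) and low in day 90 mice 2 and 3 (111 and 125), and parietal and chief cell genes are lowest among controls in mouse 3 (667).

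Few calls were made among immune cell genes or genes of neighbouring organs, and acinar signal varied widely within both groups. Of 15 macrophage and dendritic cell genes 1 was higher, the Fc receptor gene Fcgr2b with 229, 201 and 216 in day 90 tumors, against 162, 162 and 159 in control antra (0.42 ± 0.11, adjusted p = 0.0328, and over 0.05 without any 1 mouse other than day 90 mouse 2), and 0 lower. The macrophage marker Csf1r had 239.8, 149 and 179 in day 90 tumors, against 154, 198 and 163 in control antra (0.12 ± 0.19, adjusted p = 0.705). None of 7 B and plasma cell genes passed the test, with Sdc1 (-0.49) and Pim2 (0.20) having the smallest p. Among 17 interferon response genes 3 were lower and 1 higher. H2-K1, a class I histocompatibility gene, had 2394, 2529 and 2505 in day 90 tumors, against 1060.5, 993 and 1200.5 in control antra (1.20 ± 0.12, adjusted p = 0.000265), whereas Oas1a, an antiviral synthetase, had 354, 209 and 198 in day 90 tumors, against 405, 695 and 441 in control antra (-1.03 ± 0.27, adjusted p = 0.0259). The 3 lower calls were all lost without day 90 mouse 2 or 3, with adjusted p for Oas1a of 0.127 and 0.0928. Of 18 intestinal genes 1 was higher and 1 lower, and their summed signal was 10381, 10940.1 and 14489 in tumors, against 31943, 18094 and 38878 in controls. The sum was thus lower in every tumor than in any control, but in control mouse 2 most of it came from Apoa1 (14942 of 18094). The separation of the sums rests on that gene, which had 625, 1042 and 1188 in day 90 tumors. The geometric mean over members overlapped between the groups. Of 11 acinar genes only Pla2g1b was called, and the sum ran between 2776 in day 90 mouse 1 and 114854 in day 90 mouse 3, against 192573, 37801 and 24989.9 in the controls.

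The same probes were followed on the other 6 arrays, as values without a test, since all ages share the control mice. For all 15 named rises the mean at day 60 lay between those of control and day 90, and in all 15 the 3 day 90 arrays were above the other 9. Hap1 had 242, 149 and 181 in controls, 336, 767 and 325 at day 30, 2939.8, 1249 and 1523 at day 60 and 4719, 7105 and 5346 at day 90. Thy1, given above for the other groups, had 259, 285 and 207 at day 30 and 428, 341 and 256 at day 60. Gad2 had 88.3, 245 and 164 at day 30 and 616, 271 and 272 at day 60, above all controls in each of these mice. Of the 15 falls, 11 had all 3 day 90 arrays below the other 9, while their day 30 means lay on either side of the controls, below in 6 and above in 9. Pla2g1b had 30491, 11824 and 28725 at day 30 and 41563, 34656 and 29546 at day 60. Cox7a1 had 2371, 497 and 3079.7 at day 30 and 1229, 1508 and 1485 at day 60. At day 60 both lay within or above the range of the controls, while over the 15 falls the day 60 mean was below the control mean in 12, Pla2g1b being an exception.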

How the data were processed

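The deposited tables hold non-normalized probe intensity values and normalized intensity values of the same 46116 probes. The authors scanned Illumina Sentrix Mouse-6 arrays, collected the data with BeadStudio and normalized in R, naming vsn and quantile normalization. The non-normalized intensity table was used here. It was background corrected by normexp (offset 50), quantile normalized over the 12 arrays, floored at 32 and put on the log2 scale with the limma package (3.58.1, under R 4.3.3). The smallest normalized signal was 50.8, and the offset makes folds of dim probes too small. Control spots (25) were left out, and probes with a signal above 100 on at least 3 of 12 arrays were kept. Each of the day 90 and control groups holds 3 arrays of separate mice, which limits the precision, and no detection p-value, or slide was given in the sources used here.

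The files name no gene. In 9832 probe IDs the number was taken for that of an NCBI gene, and a RIKEN clone name in 983 more was matched to RefSeq genes of GRCm38.p6. Of 90 such probes that the study's tables also name, 90 had the same gene. Another 230 probes took names from those tables alone and were counted as list members only in the RE1 search. A further 349 hold receptor segments, and 35071 stayed unnamed. Where a gene had several probes, the one brightest on average stood for it.

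Day 90 was set against control with lmFit and eBayes, two-sided, without covariates. The named genes are the 15 largest rises and falls with an adjusted p under 0.05 and groups that do not overlap, outside the lists named in the text, and for each list 2 to 4 called members with the largest change in each direction, or the 2 with the smallest p. Tubb3, Nefl, Mki67, Cdkn1a, Bhlha15, Krt18, Klf4, Cald1, Synpo2 and Robo2 were named after their values were seen, and other genes as cell type markers. Members and lists were chosen with earlier results of these data known. RE1 and AP-1 letters were chosen after several motifs had been searched. Each call was repeated with other background corrections, scalings and filters, on the deposited normalized values, in 1 fit of the 4 groups, with a trended and robust spread, with a replicate block, by the methods' t-test and without each array in turn. A slide block and neqc could not be run.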

Additional observations from a re-analysis of the deposited data

How the results depend on the processing

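The count of 4312 called probes (2291 higher, 2021 lower) stayed within 1.5 times under 9 of the 10 settings that kept all arrays. The exception was the methods' t-test with Benjamini-Hochberg adjustment, which called 1644 (1067 higher, 577 lower) against 6275 at an unadjusted p under 0.05 and 1221 by the methods' own rule of p, fold and difference of means. The lower count of 2021 moved further on the deposited normalized values, to 1213. The number of probes tested also differed between settings. With no filter 46091 were tested and 9.65% called, and with the filter at 200 it was 9298 and 36.9%. Leaving out 1 array gave 2417 to 4720 calls, 1463 to 2381 higher and 954 to 2339 lower. With the deposited normalized values 1213 of 3818 calls among 10961 probes were lower, so that 68.2% were higher against 53.1%, and their median log2 fold change was 0.14 against -0.04 (-0.12 with scaling to the 75th percentile). The labels do not say whether the mouse numbers pair the animals, and the main fit took them as unpaired. Same-numbered mice had correlations of -0.328, -0.134 and -0.177 between their deviations from the group means. With 3 mice in a group these values cannot settle the question. With the replicate block 3619 probes were called. Of 123 named called probes, none changed direction in any alternative. All 15 rises kept their call in every one, as did 5 of the 15 falls (Pla2g1b, Apoa1, Cox7a1, Retnla and Pcp4l1). The methods' t-test ended 60 of the 123 calls, leaving out day 90 mouse 2 ended 31 and day 90 mouse 3 ended 22, and a trended and robust spread ended 14, among them Fabp3, Fa2h, Lpl, Krt13 and Krtdap. The cause was not tested. Dim probes under the minimum of 100 could not be judged, and 10 named probes did not pass that minimum in the deposited normalized values.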

Other observations

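Pathway lists beside the cell identities gave few calls. Of 13 Wnt pathway genes 1 was higher and 2 lower. Tle1, a Groucho corepressor, had 743, 1065 and 770.3 in day 90 tumors, against 430.4, 314 and 487 in control antra (1.07 ± 0.20, limma adjusted p = 0.00617), and Tcf7l2, the main Wnt effector of gut epithelium, had 352, 273 and 348 in day 90 tumors, against 511, 567 and 628 in control antra (-0.81 ± 0.15, adjusted p = 0.00512). Of 10 Notch pathway genes 1 was higher and 0 lower. It was Ncstn, a subunit of the gamma-secretase that releases the Notch intracellular domain, with 1947, 2584 and 2689 in day 90 tumors, against 1104, 1125 and 1339 in control antra (1.01 ± 0.16, adjusted p = 0.0027). Of 14 xenobiotic and retinol metabolism genes 2 were lower and 0 higher, led by Gstm2, a glutathione transferase, with 2316, 2236 and 2615 in day 90 tumors, against 4685, 3822 and 4500.1 in control antra (-0.86 ± 0.13, adjusted p = 0.00249, and -1.02 on a second probe).

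Among erythroid genes, Hba-a1 fell while Sptb, the red cell and neuronal beta spectrin, had 281, 325 and 309 in day 90 tumors, against 93.3, 90.6 and 102 in control antra (1.68 ± 0.12, adjusted p = 3.72e-05). Most of the largest falls could not be named. Of the 23 probes at least 10-fold lower, 15 had no gene name, against 3 of the 55 at least 10-fold higher, where the study's tables supplied names.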
